A study of Rattus norvegicus with 11 samples.

Results

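Transcripts of 10 genes that carry fatty acids into muscle, store them as triglyceride and release them again were followed in rat soleus. The genes were chosen by symbol: Cd36, Fabp3, Lpl and its inhibitor Angptl4 for uptake, Dgat1, Dgat2 and Plin2 for storage, and Pnpla2, Lipe and Mgll for lipolysis. All 10 were found under their current symbols among 16810 gene symbols in the count table, and all 10 had enough counts to be tested, among 10814 genes that did. The animals were 11 male rats of the Sprague Dawley strain, 12 months old, and no 2 of them shared a litter. In the high-fat group (n = 5) the mother had eaten a diet rich in lard and sucrose, with 23.3% fat and 20% sucrose by weight, for 3 weeks before mating and during pregnancy and lactation. In the control group (n = 6) the mother had eaten a normal fat diet with 6% soy oil and 10% sucrose over the same time. These percentages are those of the treatment protocol, and the labels elsewhere give fat contents that differ slightly. All offspring were weaned at day 21 onto standard chow, so no animal ate the high-fat diet after weaning, and all were fasted for 1 to 2 hours before anaesthesia.

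Fatty acids reach a muscle fibre in circulating lipoproteins or bound to albumin. Lipoprotein lipase, the product of Lpl, is anchored to the capillary wall by GPIHBP1 and frees fatty acids from lipoprotein triglyceride, and ANGPTL4 inactivates the enzyme. CD36 helps fatty acids cross the membrane and FABP3 carries them through the cytosol, where they are burned in mitochondria or esterified by DGAT1 and DGAT2 into triglyceride. The droplet that forms is coated by perilipins such as PLIN2, and its triglyceride is cut in order by adipose triglyceride lipase (Pnpla2), hormone-sensitive lipase (Lipe) and monoglyceride lipase (Mgll). Soleus is a postural muscle built mainly of slow, oxidative fibres.

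The promoter windows of Pnpla2, Angptl4 and Plin2 are shown. Of the 10, these genes gave the only slope on body fat that passed, the widest range between animals and the narrowest. Each window runs from 250 bases before to 50 bases after the RefSeq transcript start in assembly GRCr8, 5′ to 3′ on the gene's strand. Capitals mark matches, on either strand, to any of 6 motifs: AGGTCA (a nuclear receptor site), a direct repeat of AGGTCA with 1 spacer base, TATAAA (the TATA box), CACGTG (an E-box), GGGCGG (a GC box) and CCAAT (the CCAAT box). The Pnpla2 window is chr1:205982029-205982328 on the plus strand, the Angptl4 window chr7:15258632-15258931 on the minus strand and the Plin2 window chr5:106228969-106229268 on the minus strand, the first of the 2 windows that the table holds for Plin2.
Pnpla2: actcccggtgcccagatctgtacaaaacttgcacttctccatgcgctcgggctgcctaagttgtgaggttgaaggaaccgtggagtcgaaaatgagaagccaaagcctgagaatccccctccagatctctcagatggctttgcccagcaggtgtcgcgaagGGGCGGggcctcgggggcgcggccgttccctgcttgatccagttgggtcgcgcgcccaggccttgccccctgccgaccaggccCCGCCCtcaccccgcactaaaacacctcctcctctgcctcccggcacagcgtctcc
Angptl4: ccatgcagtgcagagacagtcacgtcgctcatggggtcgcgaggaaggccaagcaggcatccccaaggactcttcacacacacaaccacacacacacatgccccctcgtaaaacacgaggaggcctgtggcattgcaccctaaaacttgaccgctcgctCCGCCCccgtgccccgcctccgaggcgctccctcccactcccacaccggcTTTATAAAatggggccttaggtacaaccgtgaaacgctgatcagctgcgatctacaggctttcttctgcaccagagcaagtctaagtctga
Plin2: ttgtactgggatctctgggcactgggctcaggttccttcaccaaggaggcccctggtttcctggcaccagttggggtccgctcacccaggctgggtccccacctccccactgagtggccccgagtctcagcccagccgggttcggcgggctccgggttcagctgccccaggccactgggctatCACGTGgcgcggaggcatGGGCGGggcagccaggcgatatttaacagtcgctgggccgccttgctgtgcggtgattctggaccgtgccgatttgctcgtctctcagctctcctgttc
The Pnpla2 window held GGGCGG at positions -89 and -6 from the start. In the Angptl4 window TATAAA matched at -41 and -39, an overlapping pair, and GGGCGG at -91. The Plin2 window held CACGTG at -67 and GGGCGG at -49. Over all 33469 rat windows, GGGCGG occurred in 33.1%, TATAAA in 14.2%, CACGTG in 6.42%, CCAAT in 37.5%, AGGTCA in 16.2% and its direct repeat in 0.0538%. The table held windows for 6 of the 10 genes, and these matches describe letters only.

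Libraries held 10.2 to 15.4 M counted reads (M, mega), and the 10 genes had between 31 and 37960 reads per library. Values are counts per M counts (CPM), after scaling of libraries by TMM, the trimmed mean of M values, and since no transcript lengths were used, they compare animals and not genes. Slow fibre markers summed to 77584 to 109162 CPM in high-fat animals and 88010 to 109680 CPM in control animals. Adipocyte markers summed to 725 to 1301 CPM in high-fat animals and 796 to 1261 CPM in control animals. Adipoq, which is among them, spread more widely, from 9.82 to 92.8 CPM in high-fat animals and 5.26 to 99.7 CPM in control animals. The sums therefore do not show that adipocyte content was alike between libraries. The part of adipocyte markers in the results was not tested except where a value is given. Macrophage markers summed to 309.7 to 1950 CPM in high-fat animals and 373 to 1101 CPM in control animals. In high-fat animals 13 of 13 were higher, at a median log2 fold change of 0.69, and fast fibre markers were lower in 10 of 11. Over all genes 50.9% were higher. None of these markers passed the adjusted edgeR test for diet given below. An unadjusted p under 0.05 was found for 3 of 13 macrophage and 0 of 11 fast fibre markers (edgeR), against 4.84% of all genes. Total fat was 4.51 to 16.3% of body weight in high-fat animals and 3.74 to 8.52% in control animals.

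No difference by maternal diet passed the test for any of the 10 transcripts. None passed the quasi-likelihood test of edgeR after Benjamini-Hochberg adjustment over all genes, where 0% of all genes passed, and none had an unadjusted p under 0.05, against 4.84% of all genes. The smallest adjusted p among the 10 was 0.974. High-fat and control animals overlapped for all 10, while 0.370% of all genes had groups that did not overlap. The log2 fold change was above 0 for 8 of 10, against 50.9% of all genes, with a median of 0.11 over the 10 and 0.00 over all genes. In whole muscle, fewer cells of a type and less RNA per cell cannot be told apart.

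**Figure D1:**
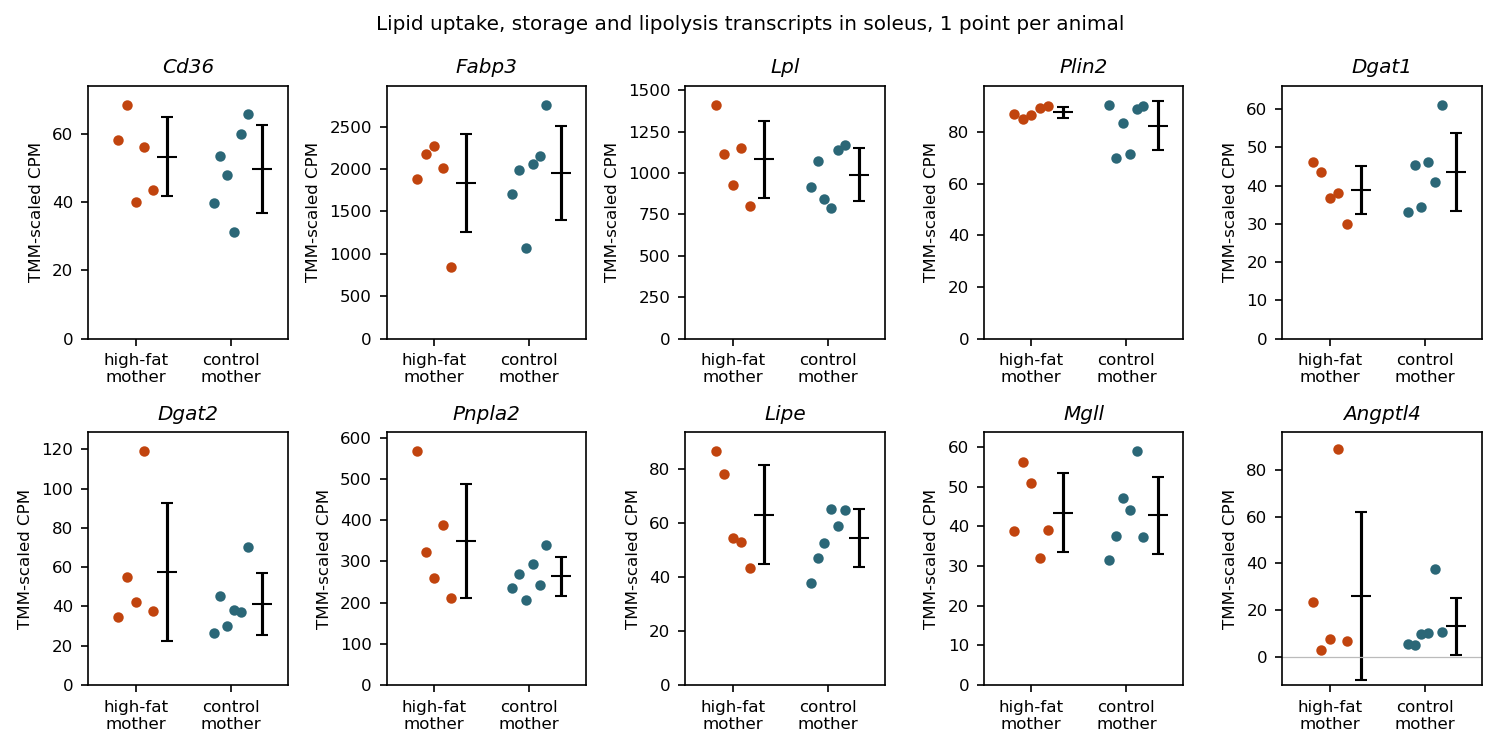
TMM-scaled CPM of the 10 transcripts on linear axes, 1 point per animal, with high-fat animals left of control animals and the mean ± SD beside each group. The groups overlap in all 10 panels, high-fat animal 4 stands far above the others for Angptl4, and the 5 high-fat animals lie within 85.2 to 90.2 CPM for Plin2.

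Of the genes that bring fatty acids to the fibre, Lpl had 1413, 1116, 929, 1153 and 801 CPM in high-fat animals 1 to 5. In the 6 control animals Lpl had a lowest value of 790, a median of 996 and a highest of 1169 CPM. High-fat animal 1 lay above every control animal, and the other 4 high-fat animals lay inside the control range. The means were 1083 ± 234 CPM in high-fat animals (SD, n = 5) and 990 ± 161 CPM in control animals (SD, n = 6), and the log2 fold change was 0.13 ± 0.16 (SE; edgeR, adjusted p = 0.976). It was 0.015 without high-fat animal 1.

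Cd36, the membrane fatty acid transporter, had 58.2, 68.5, 39.9, 56.0 and 43.3 CPM in high-fat animals, against a lowest value of 31.2, a median of 50.7 and a highest of 65.6 CPM in control animals. Only high-fat animal 2 lay above the control range. The log2 fold change of Cd36 was 0.10 with a 95% interval of -0.28 to 0.47 (estimate ± 1.96 SE). This and the other 95% intervals take 1.96 from the normal distribution, so they are approximate and narrower than the F test would give. Short reads from closely related copies can be lost in counting, and Cd36 is known in rats as a gene with duplicated relatives, so its level is uncertain.

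Fabp3, the cytosolic carrier of fatty acids in heart and slow muscle, had 1877, 2171, 2269, 2007 and 843 CPM in high-fat animals, against a lowest value of 1070, a median of 2026 and a highest of 2758 CPM in control animals. High-fat animal 5, which had the least body fat of its group, stood below every control animal. The log2 fold change of Fabp3 was -0.09, with a 95% interval of -0.60 to 0.42, and it was 0.09 without high-fat animal 5.

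Angptl4, a fasting-induced inhibitor of lipoprotein lipase, varied most of the 10, with its highest value 26.8 times its lowest. It had 23.7, 3.31, 7.87, 88.7 and 6.87 CPM in high-fat animals 1 to 5. In control animals its lowest value was 5.26, its median 10.3 and its highest 37.5 CPM. One animal in each group, high-fat animal 4 and control animal 5, stood far above the rest, and high-fat animal 2 stood below every control animal. Angptl4 averaged 26.1 ± 35.9 CPM in high-fat animals (SD, n = 5) and 13.3 ± 12.1 CPM in control animals (SD, n = 6), and the log2 fold change was 0.97 ± 0.75 (SE; edgeR, adjusted p = 0.974). Single animals set that value: it was -0.36 without high-fat animal 4 and 1.61 without control animal 5.

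**Figure D2:**
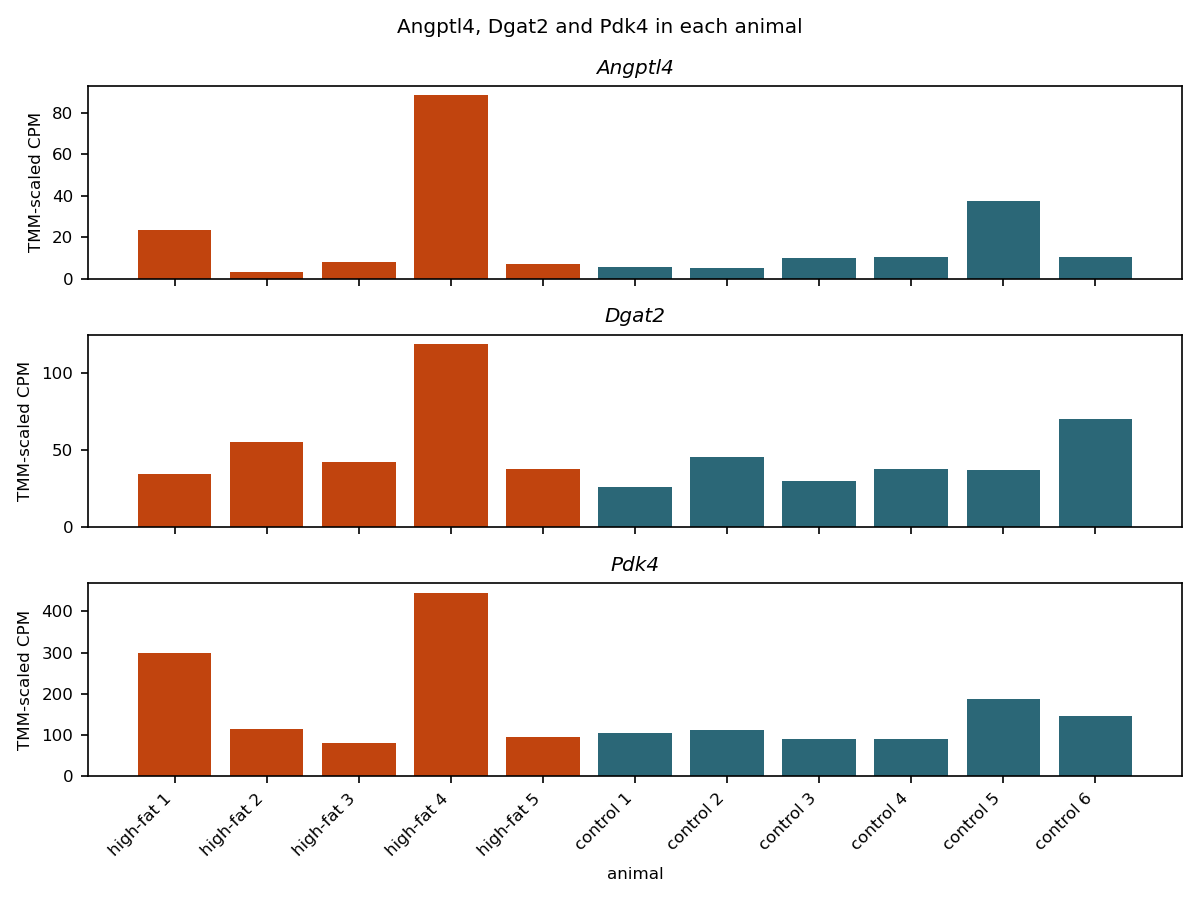
TMM-scaled CPM of Angptl4, Dgat2 and the fasting-induced gene Pdk4, 1 bar per animal, with high-fat animals left of control animals. High-fat animal 4 has the tallest bar in all 3 panels, at 88.7 CPM for Angptl4, 119 CPM for Dgat2 and 446 CPM for Pdk4.

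Among the storage genes, Plin2, which coats lipid droplets in muscle and many other tissues, had the narrowest spread. It had 87.1, 85.2, 86.4, 89.1 and 90.2 CPM in high-fat animals, against a lowest value of 69.8, a median of 86.2 and a highest of 90.6 CPM in control animals. The high-fat animals clustered inside the upper part of the control range. The coefficient of variation of Plin2 was 2.32% in high-fat animals and 11.6% in control animals, a difference that was not tested. Its log2 fold change of 0.09 had a 95% interval of -0.09 to 0.27, the tightest of the 10, and was 0.04 without control animal 2.

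Dgat1, one of the 2 enzymes for the last step of triglyceride synthesis, had 46.3, 43.5, 36.7, 38.1 and 30.0 CPM in high-fat animals, against a lowest value of 33.0, a median of 43.2 and a highest of 61.2 CPM in control animals. High-fat animal 5 lay below the control range and the other 4 inside it. Its log2 fold change was -0.16, with a 95% interval of -0.48 to 0.15, and -0.04 without control animal 6.

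Dgat2, which catalyses the same step through an unrelated protein, had 34.5, 55.1, 42.1, 119 and 37.8 CPM in high-fat animals, against a lowest value of 26.3, a median of 37.6 and a highest of 70.1 CPM in control animals. High-fat animal 4 again stood above all others, and the remaining 4 high-fat animals lay inside the control range. The log2 fold change of Dgat2 was 0.49 ± 0.33 (SE; edgeR, adjusted p = 0.974) with all animals and 0.04 without high-fat animal 4. It was 0.71 without control animal 6 (edgeR, unadjusted p = 0.0439, adjusted p = 0.999).

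Of the lipases of the droplet, Pnpla2 had 568, 324, 259, 389 and 212 CPM in high-fat animals 1 to 5. In control animals its lowest value was 206, its median 256 and its highest 339 CPM. High-fat animals 1 and 4, the fattest of the 11, lay above every control animal. The means were 350.3 ± 139 CPM in high-fat animals (SD, n = 5) and 264 ± 47.3 CPM in control animals (SD, n = 6), and the log2 fold change was 0.41 ± 0.22 (SE; edgeR, adjusted p = 0.974). That difference was 0.16 without high-fat animal 1.

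Lipe had 86.6, 78.3, 54.4, 53.1 and 43.3 CPM in high-fat animals, against a lowest value of 37.9, a median of 55.8 and a highest of 65.4 CPM in control animals. High-fat animals 1 and 2 lay above the control range, and the log2 fold change was 0.21 with a 95% interval of -0.16 to 0.58, and 0.068 without high-fat animal 1. Mgll, which clears the last fatty acid from glycerol, had 38.9, 56.3, 50.9, 31.9 and 39.1 CPM in high-fat animals, against a lowest value of 31.6, a median of 40.8 and a highest of 58.9 CPM in control animals. All high-fat values of Mgll lay inside the control range, and its log2 fold change was 0.02 with a 95% interval of -0.33 to 0.36.

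**Figure D3:**
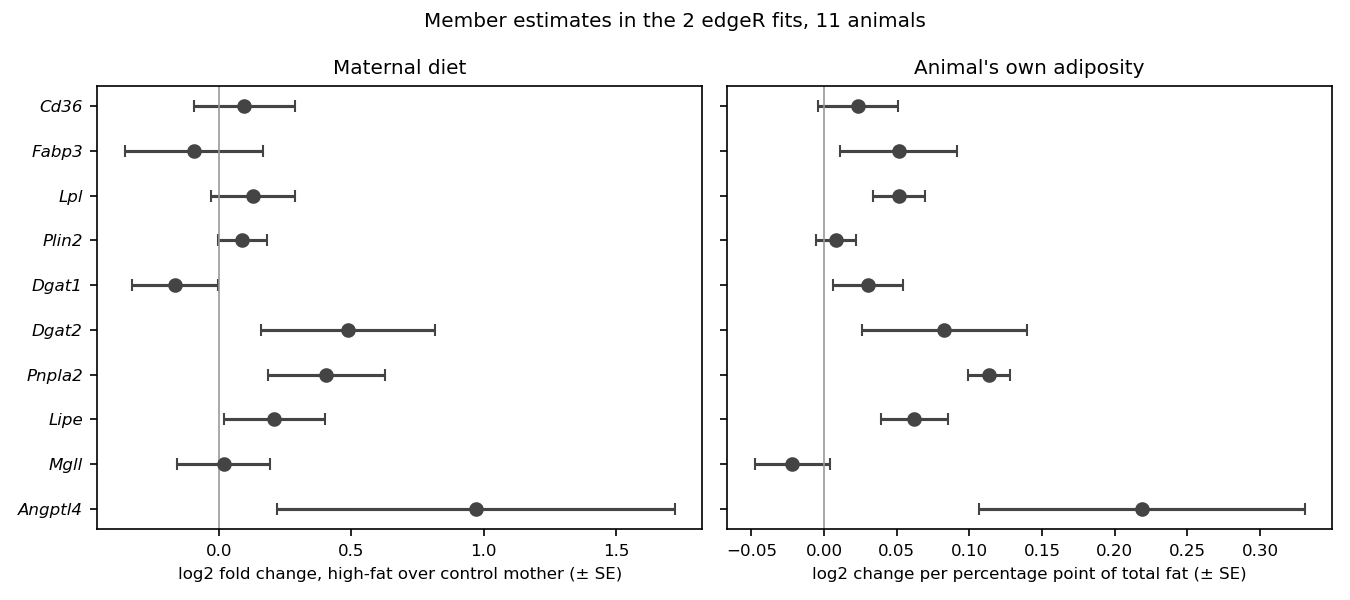
Log2 fold change by maternal diet (high-fat over control) and log2 slope per percentage point of total fat for the 10 transcripts, as points with bars of ± SE. The diet estimate of Angptl4, 0.97 ± 0.75, has the widest bar, while the fat slope of Pnpla2, 0.11 ± 0.01, has a narrow bar well above 0.

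Of the 10 transcripts, Pnpla2 was the only one whose slope on body fat passed the adjusted test. It rose with total fat as a share of body weight by 0.11 ± 0.01 on the log2 scale per percentage point (SE), or 8.18% per point (edgeR, p = 3.48e-06, adjusted p = 0.0377, n = 11). Of all 10814 genes it was the only one to pass, so 1 of the 10 passed against 0.00925% of all genes. The fattest animal, high-fat animal 1 with 16.3% fat, had 568 CPM, and the leanest, control animal 3 with 3.74% fat, had 206 CPM. High-fat animal 5 had 4.51% fat and 212 CPM, close to the leanest control animal. Not every animal kept the order. High-fat animal 3 ranked 9 of 11 from lean to fat (8.60%) and 5 from low to high in Pnpla2 (259 CPM). Control animal 2 ranked 3 in fat (4.79%) and 6 in Pnpla2 (270 CPM).

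The slope of Pnpla2 kept its size when single animals were left out, between 0.11 and 0.12, but its adjusted p ran from 0.0248 to 0.321 and passed in 2 of 11 such fits. Without high-fat animal 1 it was 0.12 (edgeR, p = 0.000996, adjusted p = 0.321, n = 10). With maternal diet in the fit it was 0.12 (edgeR, adjusted p = 0.101). Pnpla2 then ranked 3 by p, and 1 other gene, with a slope below 0, passed (edgeR, adjusted p = 0.00588). With body fat in the fit the diet difference of Pnpla2 was -0.05. In that fit the diet difference was -0.35 for Dgat1 and -0.36 for Fabp3 (edgeR, adjusted p = 0.634 and 0.704). The deposited labels also weigh the depots, and the slope per gram had an adjusted p of 0.214 for total fat, 0.371 for perirenal, 0.18 for mesenteric and 0.999 for abdominal fat.

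Over the 11 animals, log2 CPM of Pnpla2 had a Pearson r of 0.93 with total fat share (permutation p = 0.00011, adjusted p = 0.185 over all genes). Spearman's rho was 0.85 (permutation p = 0.00178, adjusted p = 0.552). By the size of r, Pnpla2 ranked 3 of all genes tested, after Dnajb9 at 0.96 and Wdr6 at -0.95. An unadjusted p under 0.05 was found for 8.80% of all genes, and for Pnpla2, Lpl and Lipe of the 10. No gene passed this adjustment, whose smallest adjusted p was 0.108. The 100000 pairings can give no p below 1e-05, and a single gene at that p cannot pass over 10814 genes. The lack of passing genes was thus largely set by the number of pairings, and no conclusion is drawn from it. Without the 2 animals farthest from the median fat share, high-fat animals 1 and 4, r was 0.75. Within the 6 control animals alone r was 0.86 (exact permutation p = 0.0306) and rho was 0.77 (exact permutation p = 0.103).

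**Figure D4:**
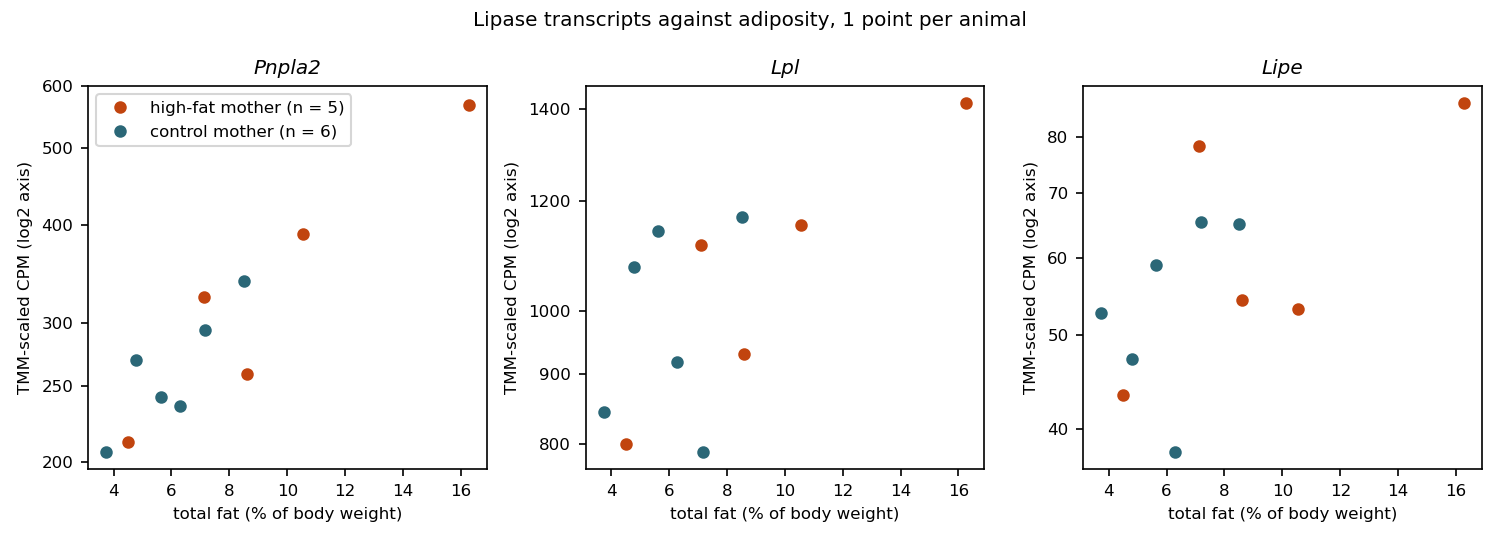
TMM-scaled CPM of Pnpla2, Lpl and Lipe on log2 axes against total fat as % of body weight, 1 point per animal, coloured by the mother's diet. Pnpla2 is at 568 CPM in the fattest animal, which is a high-fat animal, and at 206 CPM in the leanest, which is a control animal.

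Lpl and Lipe had slopes above 0 that did not pass the adjusted threshold. The slope per percentage point was 0.05 ± 0.02 for Lpl (SE; edgeR, p = 0.0141, adjusted p = 0.464, n = 11) and 0.06 ± 0.02 for Lipe (SE; edgeR, p = 0.0176, adjusted p = 0.469, n = 11). Over the 10 genes, 3 had an unadjusted p under 0.05, against 8.64% of all genes, and 9 had a slope above 0, against 47.4% of all genes. Their median slope was 0.05, against -0.00 over all genes. Without high-fat animal 1 the slopes were 0.05 for Lpl (edgeR, p = 0.183, n = 10) and 0.05 for Lipe (edgeR, p = 0.273, n = 10).

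Lpl had r = 0.69 with fat share (permutation p = 0.0131, adjusted p = 0.475) and rho = 0.60 (permutation p = 0.0574). Without high-fat animals 1 and 4, which narrows the range of fat share, its r was 0.32, while its slope lay between 0.05 and 0.06 when single animals were left out. Lipe had r = 0.63 (permutation p = 0.0356, adjusted p = 0.549) and rho = 0.60 (permutation p = 0.0554), with r = 0.48 without the same pair. Mgll had a slope of -0.02 ± 0.03 (SE; edgeR, p = 0.410, n = 11).

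Of the uptake and storage genes, Fabp3 had a slope of 0.05 ± 0.04 (SE; edgeR, p = 0.224, n = 11), Dgat1 of 0.03 ± 0.02 (SE; edgeR, p = 0.228, n = 11) and Cd36 of 0.02 ± 0.03 (SE; edgeR, p = 0.417, n = 11). Within the 6 control animals Fabp3 had r = 0.81 with fat share (exact permutation p = 0.0458) and rho = 0.71 (exact permutation p = 0.136). Neither p was adjusted over genes. The r of Fabp3 was 0.78 without high-fat animals 1 and 4, against 0.41 over all 11 animals. Plin2 had a slope of 0.01 ± 0.01 (SE; edgeR, p = 0.565, n = 11). The values of Angptl4, 0.22 ± 0.11 (SE; edgeR, p = 0.0732, n = 11), and Dgat2, 0.08 ± 0.06 (SE; edgeR, p = 0.168, n = 11), also depended on single animals, as did those of Fabp3 and Dgat1. Leaving out 1 animal gave slopes of 0.08 to 0.37 for Angptl4, 0.01 to 0.24 for Dgat2, 0.03 to 0.16 for Fabp3 and 0.02 to 0.05 for Dgat1. The lowest values came without high-fat animal 4 for Angptl4 and Dgat2 and without high-fat animal 5 for Fabp3 and Dgat1, and the highest came without high-fat animal 1 for all 4. Without high-fat animal 1 the unadjusted p was 0.000655 for Dgat2, 0.0244 for Fabp3 and 0.0247 for Angptl4, with an adjusted p of 0.321 for Dgat2 and 0.724 for Fabp3 and Angptl4 (edgeR, n = 10). Without high-fat animals 1 and 4 the r of Angptl4 with fat share was -0.06, against 0.45 over all 11 animals.

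Plasma insulin, measured in 10 of the 11 animals, gave no gene past the adjusted threshold (edgeR, smallest adjusted p = 0.357, n = 10), with an unadjusted p under 0.05 for 3.48% of all genes. Insulin slopes were above 0 for 6 of the 10 transcripts, against 48.5% of all genes. The 2 of the 10 transcripts with such a p were Angptl4, with a log2 slope of 1.63 ± 0.67 per ng/ml (SE; edgeR, p = 0.0319, n = 10), and Dgat2, with 0.76 ± 0.33 (SE; edgeR, p = 0.0407, n = 10). High-fat animal 4 had the highest insulin of the 10 animals, 2.65 ng/ml. Without it the slopes were 0.05 for Angptl4 and 0.03 for Dgat2. Pnpla2 had an insulin slope of 0.51 ± 0.24 (SE; edgeR, p = 0.0569, n = 10), which was 0.27 without high-fat animal 1 and 0.16 with maternal diet in the fit.

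Partners of the 10 genes were counted from pathway lists in the same fits, and none of their genes passed either adjusted test. Genes higher in high-fat animals numbered 5 of 12 for fatty acid uptake and activation, 4 of 9 for droplet coat and assembly, 7 of 13 for triglyceride synthesis, 3 of 11 for lipolysis partners, 5 of 9 for lipogenesis and 10 of 18 for fasting and PPAR targets. Of 4 measured partners of lipoprotein lipase, 4 were higher in high-fat animals. Over all genes the share was 50.9%. Gpihbp1, the capillary anchor of the enzyme, had 37.2, 45.7, 49.7, 26.9 and 12.6 CPM in high-fat animals, against 15.6, 13.7, 12.1, 22.9, 32.7 and 32.3 CPM in control animals. Its fat slope was 0.12 ± 0.05 (SE; edgeR, p = 0.0434, adjusted p = 0.557, n = 11). Of the 4 partners, 2 had a fat slope above 0 and 2 below 0, with -0.02 for both Pcsk6 and Sel1l.

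For triglyceride synthesis 11 of 13 slopes on fat share were above 0, with Agpat2 at 0.09 ± 0.03 (SE; edgeR, p = 0.00373, adjusted p = 0.391, n = 11) and Agpat4 at 0.07 ± 0.02 (SE; edgeR, p = 0.00395, adjusted p = 0.401, n = 11), both named as acyltransferases of phosphatidic acid synthesis. Slopes above 0 numbered 7 of 12 for fatty acid uptake and activation, 5 of 9 for droplet coat and assembly, 3 of 11 for lipolysis partners, 4 of 13 for PPAR receptors and partners, 7 of 11 for endothelial markers and 1 of 9 for lipogenesis. Over all genes 47.4% had a slope above 0. Abhd5, the activator of adipose triglyceride lipase, had a slope of -0.02 ± 0.02, and G0s2, its inhibitor, of -0.12 ± 0.10 (SE). G0s2 ranged from 31.7 to 345 CPM in high-fat animals and from 32.3 to 277 CPM in control animals. Plin5, the droplet coat of oxidative tissue, had a slope of 0.01 ± 0.04 (SE). Other partners fell with fat share at an unadjusted p under 0.05 (edgeR, n = 11). Their slopes were -0.04 for Bscl2, -0.14 for Cidec and -0.27 for Plin1 among droplet genes, of which 1 other rose at such a p. Lipolysis partners Prkar2b and Ces1d had -0.13 and -0.19, and lipogenesis genes Scd and Thrsp had -0.11 and -0.16. Cidec, Plin1 and Thrsp are also on the adipocyte marker list.

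PPAR receptors are nuclear receptors that sense fatty acids, and many genes of fatty acid use, Angptl4 and Plin2 among them, are known targets. Of 13 receptor and partner genes, 7 were higher in high-fat animals, against 50.9% of all genes. Ppard, the receptor form typical of oxidative muscle, ranged from 32.5 to 56.7 CPM in high-fat animals and from 23.1 to 38.9 CPM in control animals. The groups overlapped, and its log2 fold change was 0.50 ± 0.16 (SE; edgeR, adjusted p = 0.974).

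Of 18 fasting and PPAR target genes, 18 had a fat slope above 0, with a median of 0.04, and 4 had an unadjusted p under 0.05, against 47.4% and 8.64% of all genes. Pdk4, which restrains glucose oxidation, had 299, 113, 80.7, 446 and 95.6 CPM in high-fat animals, against 104, 112, 90.8, 90.6, 187 and 146 CPM in control animals. High-fat animals 1 and 4 stood above all others, and the slope was 0.17 ± 0.05 (SE; edgeR, p = 0.00371, adjusted p = 0.391, n = 11). The mitochondrial carrier Ucp3 had a slope of 0.16 ± 0.04 (SE; edgeR, p = 0.00301, adjusted p = 0.373, n = 11). With maternal diet in the fit 16 of the 18 slopes were above 0, and without high-fat animal 1, 17 were, with a median of 0.09 and 11 with an unadjusted p under 0.05.

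**Figure D5:**
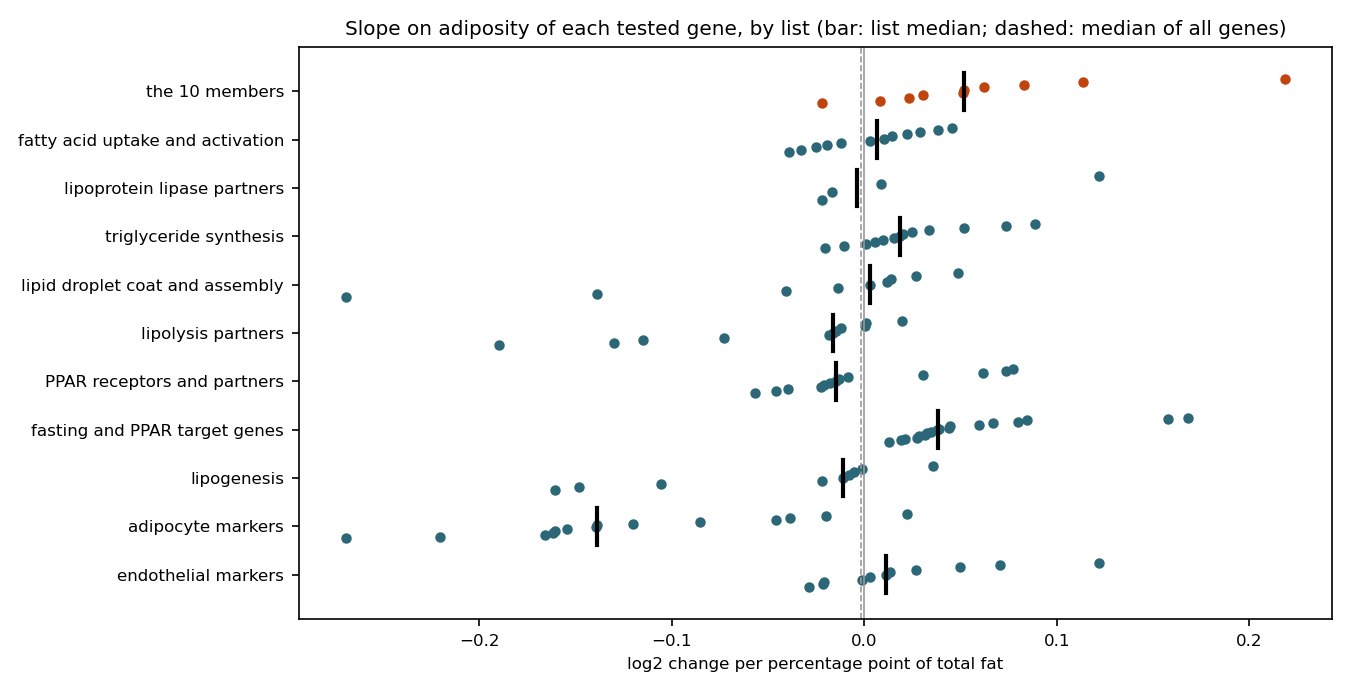
Log2 slope per percentage point of total fat for each tested gene of the 10, the pathway lists and the adipocyte and endothelial markers, with a bar at each list's median and a dashed line at the median of all genes. Fasting and PPAR target genes lie above 0 in 18 of 18, and adipocyte markers lie below 0 in 13 of 14.

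Most adipocyte markers had fat slopes below 0. Of 14 measured markers, 13 had a slope below 0, with a median of -0.14, while 47.4% of all genes had a slope above 0. An unadjusted p under 0.05 was found for 6 of the markers, against 8.64% of all genes, and for 2 with limma voom, 3 without high-fat animal 1 and 9 without control animal 4. Adipoq, the adipocyte hormone adiponectin, had 9.82, 26.5, 35.4, 38.6 and 92.8 CPM in high-fat animals, against 68.6, 38.5, 99.7, 5.26, 27.9 and 33.9 CPM in control animals. The slope was -0.22 ± 0.07 for Adipoq (SE; edgeR, adjusted p = 0.438) and -0.27 ± 0.07 for Plin1, the adipocyte perilipin (SE; edgeR, adjusted p = 0.373). Pnpla2, Lipe and Dgat2 are also strongly expressed in adipocytes, and with an adipocyte score in the fit, an alternative chosen after seeing the data, the slope of Pnpla2 was 0.10 (edgeR, adjusted p = 0.442). In the same fit the slope was 0.04 for Lipe (edgeR, p = 0.138, n = 11), 0.01 for Fabp3 and 0.01 for Dgat1.

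Between the 10 genes themselves, the closest pairs over the 11 libraries by Pearson's r of log2 CPM were Cd36 with Lpl at 0.80, Lpl with Pnpla2 at 0.78, Fabp3 with Dgat1 at 0.76 and Pnpla2 with Lipe at 0.72. Among all other genes tested, the 3 most like Fabp3 were Slc25a20 at 0.96, Hadhb at 0.95 and Eci2 at 0.95, all named for mitochondrial fatty acid oxidation. Those most like Pnpla2 were Wdr45 at 0.95, Dnajb9 at 0.93 and Eapp at 0.93. Angptl4 was most like Gadd45b at 0.92, Nup35 at 0.90 and Slco2a1 at 0.87, and Dgat1 was most like Flcn at 0.96, Coq10a at 0.95 and Schip1 at 0.94. Each was picked as the highest of all genes tested across libraries that share depth and scaling, and is given as a description.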

How the data were processed

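Per the labels' protocols, poly(A) RNA of soleus (2 µg total RNA) was read on a Genome Analyzer for 36 cycles. The authors deposited raw read counts per gene symbol, 1 column per animal. The submitters' processing notes name FastQC, BWA, HTSeq and edgeR without versions. Neither genome build nor strand handling is given in the sources used here. Count columns were matched to animals by name, and groups came from the diet label. Animal numbers here follow accession order and differ in part from those in the deposited column names.

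Genes were kept by filterByExpr (10814 tested, 5996 removed) and scaled by TMM (factors 0.897 to 1.12). Tests were quasi-likelihood F tests in edgeR, adjusted by Benjamini-Hochberg over all genes tested at 0.05, fitted for maternal diet, for total fat as percent of body weight and for plasma insulin (10 libraries). SE is the absolute log2 estimate divided by the square root of F. Correlations used log2 CPM (prior count 2) with 100000 random pairings, or all 720 pairings of the 6 control animals. A count of 0 allows up to 3 counts, or 0.195 to 0.295 CPM per library, and covers counting error only. The common biological coefficient of variation was 0.234.

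The 10 genes and the lists were chosen with earlier results of these data known. Besides the 10, candidates for naming were, per pathway list, up to 3 genes with the smallest p in the diet and in the fat fits. A fixed set including Gpihbp1, Adipoq and Pdk4, and the 3 genes most correlated with each of the 10, were also candidates. Not every candidate is named. Alternatives were other scalings and filters, DESeq2, limma voom, covariates, other fat measures and leaving out each animal. Tested on simulated data, the diet test recovered 30.3% of 1.5-fold, 65.2% of 2-fold and 95.1% of 4-fold changes among 10729 genes, with 7 false calls of 128. The fat test recovered 56.7%, 83.3% and 100% of those sizes per 5 percentage points among 10718 genes, with 7 false calls of 163. Many genes were changed at once in the simulated data, which eases the adjusted threshold, and each gene was drawn independently. The rates therefore do not give the recovery of a single changed gene in the real data, which was not tested. Promoter windows are from RefSeq, assembly GRCr8. Versions were DESeq2 1.42.0, limma 3.58.1 and edgeR 4.0.16 in R 4.3.3, with SciPy 1.17.1, pandas 2.3.3 and NumPy 2.4.6 in Python 3.11.15.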

Additional observations from a re-analysis of the deposited data

Results flagged for a closer look

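Single animals stood apart from their group in 3 of the 10 transcripts, by Dixon's test of the gap to the nearest animal, which chance passes in about 1 in 20 groups. Angptl4 was far above its group in high-fat animal 4, at 88.7 CPM, and in control animal 5, at 37.5 CPM. Dgat2 was far above its group in high-fat animal 4 too, at 119 CPM. Fabp3 was far below its group in high-fat animal 5, at 843 CPM.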

How the results depend on the processing

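The deposited column names number the animals within each group, and 5 numbers occur in both. Animals with the same number came from different litters, and their deviations from the group means had correlations of -0.355 to 0.037, none over 0.1. Correlations over all genes cannot show a small shared effect, and whether animals with the same number shared a processing step was not tested. With the number as a replicate block (10 libraries, chosen after seeing the data) 0 genes passed for diet and 0 for fat, against 1 for fat without it. In that blocked fit the slope of Pnpla2 was 0.13 (edgeR, adjusted p = 0.517), the diet difference of Mgll -0.0092 and the fat slope of Plin2 -0.00051.

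For maternal diet no transcript of the 10 passed under any of 22 alternatives; over all genes DESeq2 called 7, limma voom 0 and edgeR 0. Leaving out 1 animal gave log2 fold changes of -0.0093 to 0.19 for Cd36 and -0.22 to 0.089 for Fabp3. It gave -0.091 to 0.11 for Mgll and -0.36 to 1.61 for Angptl4, and each of these changed sign. Ranges that kept their sign were 0.015 to 0.22 for Lpl, 0.068 to 0.32 for Lipe and -0.23 to -0.043 for Dgat1. The same held for Pnpla2 at 0.16 to 0.54, Dgat2 at 0.039 to 0.71 and Plin2 at 0.044 to 0.12. With body fat in the fit the diet difference was -0.089 for Lpl, -0.054 for Pnpla2, -0.021 for Lipe and -0.031 for Angptl4, and it was -0.35 for Dgat1 and -0.36 for Fabp3.

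The fat slope of Pnpla2 was above 0 in 29 of 29 alternatives and passed in 11. Over all genes the number called by fat was 62 with DESeq2, 45 with mesenteric fat in grams, and 2 with limma voom and with log2 fat share. It was 0 with the name letter covariate, total, abdominal or perirenal grams, the adipocyte score, and diet in the fit without high-fat animal 1. Among the 10 transcripts 0 passed in these settings that called 0 genes, and also with diet in the fit or mesenteric grams. Leaving out 1 animal gave 0 to 2 genes and 0 to 1 of the 10, and for insulin 0 to 3 genes. Slopes that changed sign were Cd36 with abdominal grams at -0.0058, Plin2 at -0.0049 with total count scaling and -0.0077 with mesenteric grams, and Mgll with mesenteric grams at 0.029. Without the 2 animals farthest from the median fat share r was 0.089 for Mgll and -0.063 for Angptl4. The cause of these changes was not tested. The score covariates and the fit without high-fat animal 1 with diet were chosen after seeing the data. Depth limits Angptl4 most, with 31 reads in its lowest library.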
